A study of Mus musculus with 6 samples.

Results

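The genes described here are the matrix metalloproteinases (MMP), their tissue inhibitors (TIMP) and the ADAMTS proteases of the mouse. They were chosen by symbol alone, as every gene whose name is Mmp, Timp or Adamts followed by its number, which gave 46 of the 30281 gene symbols in the tables: 23 MMP, 4 TIMP and 19 ADAMTS genes. The rule itself uses no measured value.

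MMPs and ADAMTS enzymes are zinc proteases that cut the proteins around cells. Most are secreted with a propeptide that keeps them inactive until furin, plasmin or another MMP removes it, and the membrane-type MMPs stay anchored on the cell and activate others there. TIMPs bind the active site and block it, and Timp3, which is held in the matrix, also blocks several ADAMTS enzymes. In the kidney and in connective tissue these genes are known for turnover of collagen, basement membrane and the large proteoglycans aggrecan and versican.

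RNA was sequenced in 6 libraries with 1 library per condition. A pair came from mouse embryonic fibroblasts (MEFs), with the genotype Tsc2+/+ p53-/- in one and Tsc2-/- p53-/- in the other, both untreated, so both genotypes carry p53-/-. The other 4 came from the kidney epithelial lines MKOC and TJ, both labelled Tsc2-null, with TJ derived from a secondary tumor in C57BL6 mice. Each kidney line was left untreated or given 100 nM rapamycin, the inhibitor of mTORC1, for 18 hours without serum. Tsc2 encodes tuberin, which restrains mTORC1. No kidney line with intact Tsc2 was measured, each line is a single line, and no fibroblasts received rapamycin, so effects of Tsc2 loss and of rapamycin come from different cell types.

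The libraries held between 22887020 and 37505004 estimated counts. RNA from the targeted gene was present in every library: Tsc2 was at 22.6 TPM (a transcript abundance corrected for length and depth) in Tsc2+/+ MEFs, 10.5 TPM in Tsc2-/- MEFs, 49.1 and 44.0 TPM in untreated MKOC and TJ cells and 19.5 and 19.1 TPM with rapamycin. Trp53, the gene of p53, was at 26.3 and 28.6 TPM in Tsc2+/+ and Tsc2-/- MEFs. Fibroblast markers were present in both MEF libraries, where 7 and 8 of 9 reached 1 TPM, against 2 or 3 of 9 in the kidney libraries. Of 9 kidney epithelial markers, 7 reached 1 TPM in each kidney library, and Epcam was at or under 3 counts in all 4. In each kidney library 1 of 6 mesothelial markers (Msln, 69.5 to 150 TPM) and 2 of 5 macrophage markers (among them Csf1r, 11.3 to 30.3 TPM) also reached 1 TPM, while Adgre1 was at or under 3 counts in all 6 libraries. Transcripts shorter than 300 bases took 20.9% of all TPM in Tsc2+/+ MEFs and 4.09% to 7.998% elsewhere, which lowers every TPM of longer genes in that library.

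Of the 46 genes, 29 reached 1 TPM in at least 1 library, and 16 reached 10 TPM. The number at or above 1 TPM was 18 in Tsc2+/+ MEFs, 26 in Tsc2-/- MEFs and 16 or 17 in each kidney library. In 9 genes, at least 1 TPM was found in every library: Adamts1, Adamts4, Mmp11, Mmp19, Mmp24, Mmp28, Timp1, Timp2 and Timp3. Another 9 had at most 3 counts in every library, among them Timp4 and the matrilysin Mmp7. The collagenase Mmp1a and Mmp20, the enamel protease, had no count at all, which allows up to 0.105 and 0.0626 TPM in the library where 3 counts are worth most. These limits cover counting error only.

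**Figure D1:**
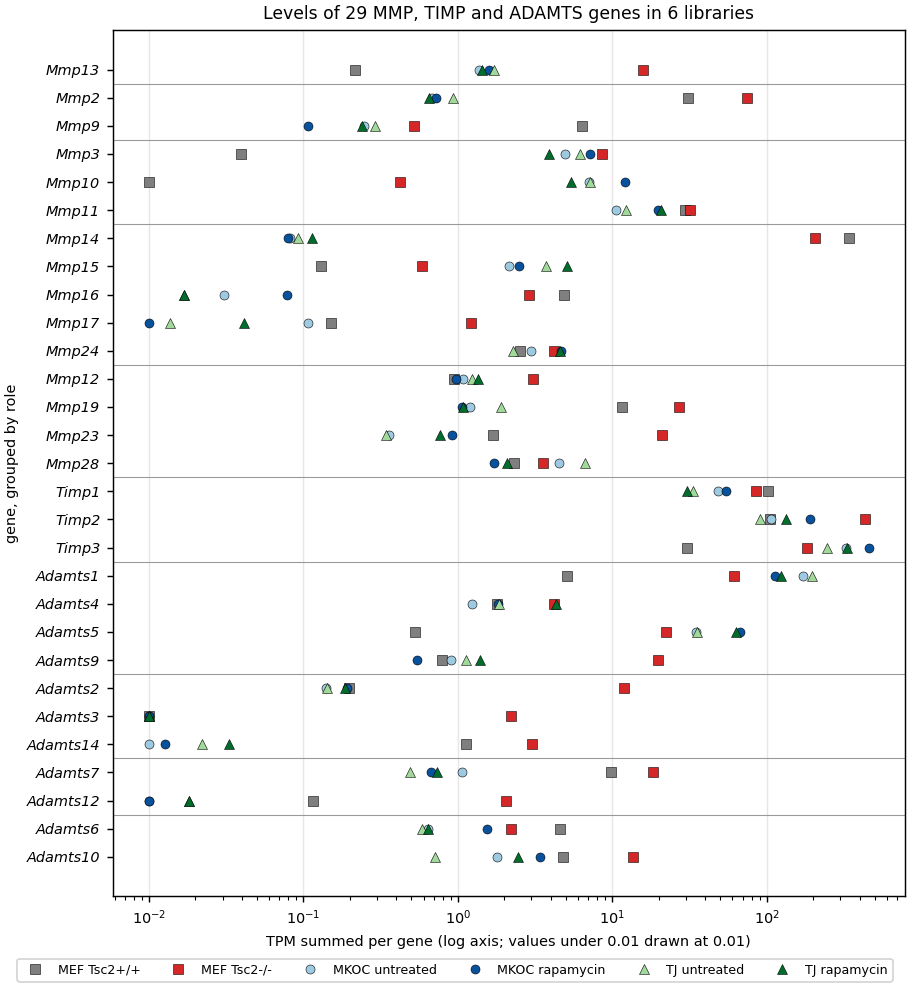
TPM per gene (log axis; values under 0.01 drawn at 0.01) of the 29 genes that reached 1 TPM in at least 1 of 6 libraries, grouped by role with lines between roles; squares are MEFs, circles MKOC and triangles TJ. Mmp14 sits above 200 TPM in both MEF libraries and near 0.1 TPM in the kidney lines, while Adamts1 and Adamts5 are highest in the kidney lines.

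The classes differed in which gene made up most of their RNA. Summed over the 23 MMP genes, the level was 432 TPM in the Tsc2+/+ and 402 TPM in the Tsc2-/- MEF library, of which Mmp14, the membrane-type protease that activates pro-Mmp2, made up 78.9% and 51.1%. In the kidney lines the MMP sum was 37.4 to 53.6 TPM, and Mmp11 (stromelysin-3) led it with 27.0% to 43.6%. The 19 ADAMTS genes summed to 28.9 TPM in Tsc2+/+ MEFs, 163 TPM in Tsc2-/- MEFs and 190 to 237 TPM in the kidney lines. Adamts1 and Adamts5 together held 95.02% to 97.9% of that sum in the kidney libraries. Kidney ADAMTS RNA was thus almost entirely that of a pair of proteoglycan-cleaving enzymes, while in Tsc2+/+ MEFs the leading gene was Adamts7 with 33.8%.

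The 4 inhibitors summed to 237 TPM in Tsc2+/+ MEFs, 702 TPM in Tsc2-/- MEFs, 480 and 369 TPM in untreated MKOC and TJ cells and 702 and 497 TPM with rapamycin. Per TPM of MMP RNA there were 0.548 TPM of TIMP RNA in Tsc2+/+ MEFs, 1.75 in Tsc2-/- MEFs and 8.14 to 13.1 in the kidney libraries. Part of these sums depends on how reads were divided between the 2 Timp2 transcripts. One of 718 bases held 12.6% of the Timp2 counts but 52.8 of 105 TPM in the Tsc2+/+ and 214 of 434 TPM in the Tsc2-/- MEF library. Without it the ratios were 0.426, 1.21 and 7.16 to 11.4, in the same order of groups.

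A group of 10 MMP genes lies together on chromosome 9 (GRCm38, GENCODE M21) and spans 427.1 kb, in the order Mmp13, Mmp12, Mmp1b, Mmp3, Mmp1a, Mmp10, Mmp8, Mmp27, Mmp20 and Mmp7. Promoter windows from RefSeq (GRCm38.p6, 250 bases before to 50 after each start) were matched for 32 of the 46 genes, including all 10 of this group. The AP-1 site TGAGTCA, searched on both strands, was in the window of 7 of the 10 (Mmp13, Mmp12, Mmp1b, Mmp3, Mmp1a, Mmp10 and Mmp7) and of 0 of the other 22, against 5.20% of all 32851 windows. The TATA box TATAAA was in 9 of the 10 and in 2 of the other 22, against 13.6% of all windows. The ETS-type PEA3 site AGGAAG was in 7 of the 10 and in 8 of the other 22, against 35.4% of all windows. The 3 motifs share no bases with each other in the stretches below. A gene counts here if any of its windows matches (35 windows for the 32 genes), while the share of all windows counts single windows. The AP-1 match of Mmp12 lies in a later window (chr9:7347124-7347423) and not in that at its gene start. These are matches of letters, and no binding was measured. The stretches shown are the 120 bases before the start of 3 genes of the group that were measured above 5 TPM in at least 1 library, and of Adamts1, the most abundant ADAMTS gene, whose window has a TATA box and no AP-1 match. Capitals mark matches to the 3 motifs on either strand.
Mmp13 (collagenase-3), chr9:7272394-7272513, plus strand: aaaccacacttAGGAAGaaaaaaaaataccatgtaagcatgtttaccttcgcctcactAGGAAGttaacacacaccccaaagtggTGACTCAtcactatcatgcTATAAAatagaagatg
Mmp3 (stromelysin-1), chr9:7445702-7445821, plus strand: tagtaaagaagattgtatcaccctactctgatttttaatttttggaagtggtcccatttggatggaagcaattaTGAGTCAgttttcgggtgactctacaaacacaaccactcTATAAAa
Mmp10 (stromelysin-2), chr9:7502222-7502341, plus strand: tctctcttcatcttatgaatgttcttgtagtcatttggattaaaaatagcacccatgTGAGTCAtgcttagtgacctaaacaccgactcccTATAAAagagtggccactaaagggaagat
Adamts1, chr16:85803114-85803233, minus strand: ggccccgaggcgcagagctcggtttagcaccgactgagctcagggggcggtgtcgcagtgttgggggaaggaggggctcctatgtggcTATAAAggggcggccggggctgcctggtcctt

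Neighbours in this group were measured at very different levels, also where their windows hold the same motifs. Mmp13 was at 0.217 TPM in Tsc2+/+ MEFs, 15.9 TPM in Tsc2-/- MEFs and 1.38 to 1.71 TPM in the kidney libraries. Mmp3 was at 0.0395 and 8.59 TPM in the same MEFs and 3.92 to 7.14 TPM in the kidney libraries. Mmp10 had no count in Tsc2+/+ MEFs, 0.420 TPM in Tsc2-/- MEFs and 5.38 to 12.1 TPM in the kidney libraries. The leading gene of the group was thus Mmp13 in Tsc2-/- MEFs and Mmp10 in the kidney libraries. Mmp12, the macrophage elastase, was at 0.947 to 3.07 TPM and led the group in Tsc2+/+ MEFs, but 88.2% of its counts fell on a transcript with a retained intron, so its level as a coding RNA is uncertain. Mmp1a, Mmp1b, Mmp20 and Mmp7 had at most 3 counts in every library, although the windows of 3 of them hold the AP-1 letters.

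**Figure D2:**
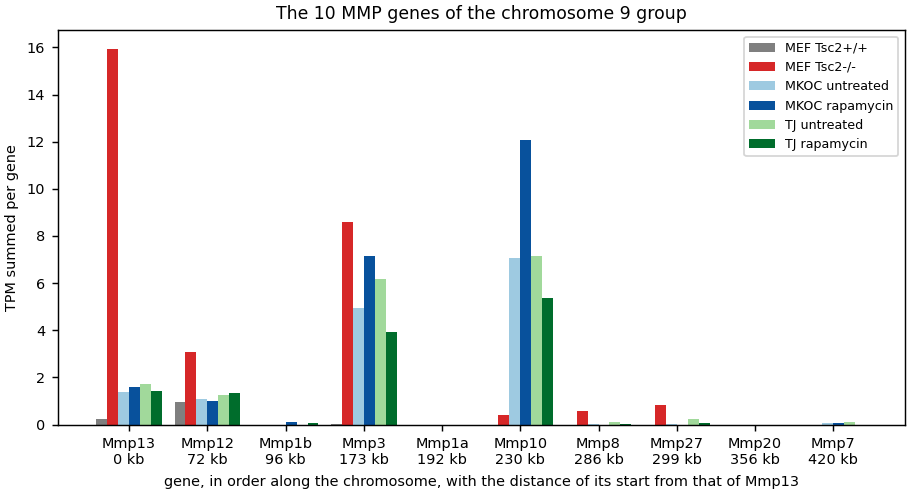
TPM per gene (linear axis from 0) of the 10 MMP genes on chromosome 9, in their order along the chromosome with the distance of each start from that of Mmp13 in kb; bars are the 6 libraries. Tsc2-/- MEFs are highest for Mmp13 (15.9 TPM), and the kidney lines for Mmp10 (5.38 to 12.1 TPM).

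The first comparison asks how these genes differed between the MEFs labelled Tsc2-/- and Tsc2+/+. At least 2-fold higher in Tsc2-/- MEFs were 7 of 11 ADAMTS, 6 of 12 MMP and 2 of 3 TIMP genes that could be compared, and Mmp9 was lower. Fold changes are of TPM with 1 added, and genes with a mean of at least 1 TPM in both libraries together were used. Of 26 such members, 15 were at least 2-fold higher in Tsc2-/- MEFs, against 24.5% of all 12232 genes that met the same minimum. At least 2-fold lower was 1 member, against 4.92% of all genes, and 10 lay between. At least 8-fold higher were 7 members, against 3.38% of all genes. That count was 4 with the libraries scaled to a median ratio of 1 and 0 with 5 TPM added, where 2.53% and 0.834% of all genes passed. With no minimum level, 15 of the 46 members were higher and 1 lower, against 10.6% and 2.19% of all 30281 genes. The median log2 fold change was 1.20 for the 26 members and 0.44 for all genes. Adamts2, Adamts3, Adamts12, Mmp3 and Mmp13 were at 0.198, 0, 0.115, 0.0395 and 0.217 TPM in Tsc2+/+ MEFs. With 1 TPM added, a gene so low there meets the minimum only if it is at least 2-fold higher in Tsc2-/- MEFs. Counts of higher members at this minimum, also by class, are therefore a description and are not read as support. With 1 library per genotype there is no replicate check and no test.

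Among the proteoglycan-cleaving enzymes, Adamts5 (aggrecanase-2, chr16:85856173-85901828) was at 0.532 TPM in Tsc2+/+ and 22.3 TPM in Tsc2-/- MEFs, a 15.2-fold difference. Adamts9 was at 0.791 and 19.8 TPM, 11.6-fold. Adamts1 (chr16:85793827-85803113) was at 5.08 and 61.9 TPM, 10.3-fold. All 3 were thus more than 10-fold higher in the Tsc2-/- library on this scale, and Adamts4 (aggrecanase-1), at 1.78 and 4.17 TPM, was under 2-fold apart. The procollagen N-proteinase Adamts2, which trims fibrillar procollagens, was at 0.198 and 11.9 TPM, 10.8-fold. Its relative Adamts3 had no count in the first and 2.20 TPM in the other, 3.20-fold with 1 TPM added and, with the floor of 3 counts in place of the empty library, at least 171-fold higher in TPM. Adamts14, the third of these, was at 1.14 and 3.03 TPM, a 1.89-fold difference. Of the enzymes that cut cartilage oligomeric matrix protein, Adamts12 was at 0.115 and 2.04 TPM, which is 2.72-fold with 1 TPM added and 17.7-fold without, and Adamts7 was at 9.76 and 18.3 TPM (1.79-fold). Adding 1 TPM lowers the folds of genes under 1 TPM in the Tsc2+/+ library, so folds of low genes are not ranked here. Adamts10, linked to fibrillin microfibrils, was at 4.79 and 13.7 TPM, 2.54-fold. Adamts6 lay the other way, at 4.58 and 2.21 TPM, a fold of 0.576.

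Among the MMPs, the collagenase Mmp13 was 13.9-fold higher in Tsc2-/- MEFs and the stromelysin Mmp3 9.22-fold higher with 1 TPM added. Mmp3 had 2 counts in Tsc2+/+ MEFs, and its ratio of TPM without the added 1 was 217, with an exact 95% counting interval of 59.5 to 1807. Mmp23, a membrane MMP without the usual hemopexin domain, was at 1.69 and 21.2 TPM, 8.24-fold. Mmp2 (gelatinase A, chr8:92827291-92853420) was at 30.8 and 74.2 TPM, 2.36-fold, and Mmp19, a broadly expressed MMP, at 11.5 and 26.9 TPM, 2.23-fold. Mmp12 was at 0.947 and 3.07 TPM, 2.09-fold, but its log2 fold was 0.27 in CPM against 1.06 in TPM, and its leading retained-intron transcript was at 0.912 and 0.903 TPM. These 6 of the 12 MMPs compared were at least 2-fold higher, beside the 24.5% of all genes given above.

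On the other side, Mmp9 (gelatinase B, chr2:164940780-164955850) was at 6.37 TPM in Tsc2+/+ and 0.518 TPM in Tsc2-/- MEFs, so that the gelatinases Mmp2 and Mmp9 lay in opposite directions. Mmp9 was 4.86-fold higher in Tsc2+/+ MEFs. Mmp14 (chr14:54431612-54445364), the most abundant MMP, was at 341 and 206 TPM, a fold of 0.604, inside the 2-fold limits. Mmp11 was at 29.6 and 31.9 TPM, and its small difference turned negative (-0.27 on the log2 scale) when the libraries were scaled to a median ratio of 1.

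Of the inhibitors, Timp3 (chr10:86300372-86349506, within Syn3, which lies on the opposite strand and shares exon bases with it) was at 30.3 and 183 TPM, 5.89-fold higher in Tsc2-/- MEFs. Timp2 (chr11:118301069-118355740), which takes part in the activation of pro-Mmp2 by Mmp14, was at 105 and 434 TPM, 4.09-fold. Timp1 (chrX:20870166-20874735, within Syn1) was at 101 and 85.3 TPM, a fold of 0.844. The inhibitors therefore differed among themselves.

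**Figure D3:**
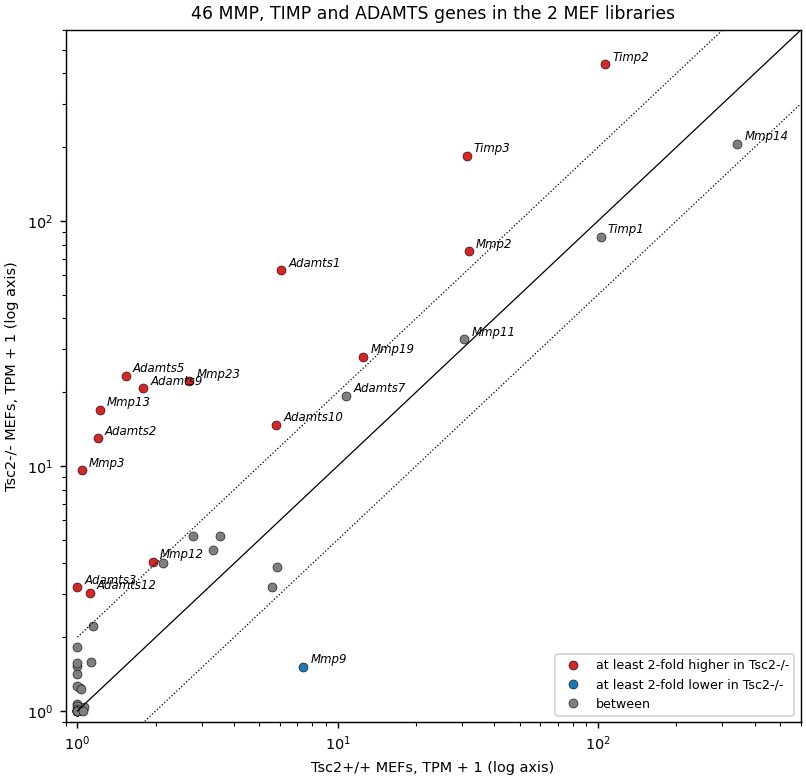
TPM with 1 added in Tsc2-/- MEFs (vertical) against Tsc2+/+ MEFs (horizontal), both on log axes, with 1 point per gene for all 46 genes; the solid line marks equal values and the dotted lines a 2-fold difference. The 15 red genes are higher in Tsc2-/- MEFs and Mmp9 in blue is lower.

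The MEF libraries also differed in general level and in markers. Over 7377 genes with at least 10 TPM in both, the median ratio was 1.31 in favour of Tsc2-/- MEFs, and with the libraries scaled to a ratio of 1 the members counted 11 higher and 3 lower, against 15.6% and 8.04% of all genes. Adamts10, Mmp12, Mmp2 and Mmp19 were then no longer 2-fold higher, and Mmp14 (at -1.11 on the log2 scale) and Adamts6 were past 2-fold lower beside Mmp9. Mesothelial markers summed to 2.66 TPM in Tsc2+/+ MEFs, where 1 of 6 reached 1 TPM, and to 477.5 TPM in Tsc2-/- MEFs, where all 6 did, each at 29 TPM or more. Of 9 kidney epithelial markers, 0 reached 1 TPM in Tsc2+/+ MEFs and 2 in Tsc2-/- MEFs, with Krt19 at 55.6 TPM. Fibroblast markers summed to 1888 and 2846 TPM, with Thy1 at 0 in Tsc2+/+ MEFs. The part of these differences in the results on the proteases was not tested, and in bulk RNA a larger share of some cells cannot be told apart from more RNA per cell.

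The second comparison asks what rapamycin did in the kidney lines. With rapamycin, the inhibitors Timp2 and Timp3, the aggrecanases Adamts5 and Adamts4, Mmp11, Mmp24 and the gene total of Adamts10 rose. Mmp28 and Adamts1 fell. Counts of the 4 kidney libraries were compared by edgeR's quasi-likelihood test with the line as a covariate, so the lines MKOC and TJ are the only replicates (n = 2 per treatment). Of the 23 members with enough counts to test, 7 rose and 2 fell at a Benjamini-Hochberg adjusted p under 0.05. Over all 12952 genes tested, 17.5% rose and 17.4% fell, 34.9% in all. The median log2 fold change was 0.19 for the 23 members and 0.02 for all genes. The 9 of 23 members called are thus near the share of all genes. Without the line as replicate block the counts were 2 higher and 2 lower, where 9.84% of all genes were called. In fits that left out 1 library and had no line term, 1 member was higher without MKOC rapamycin, 3 without TJ rapamycin and 0 without either untreated library, and 0 were lower in all 4 fits, while 5 to 9 members had an unadjusted p under 0.05 in edgeR and 0 to 613 genes in all were called. Kidney epithelial markers summed to 1461 and 1677 TPM in untreated MKOC and TJ cells and to 2109 and 2502 TPM with rapamycin, and their part in the results was not tested.

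Adamts1 and Adamts5 are neighbours on chromosome 16, with 53060 bases between them, and moved in opposite directions. Adamts5 was at 35.1 and 35.5 TPM in untreated MKOC and TJ cells and at 67.2 and 63.7 TPM with rapamycin. Adamts1 was at 172 and 197 TPM untreated and at 114 and 124 TPM with rapamycin. Treated and untreated libraries did not overlap for either gene. The log2 fold change was 0.88 (SE 0.097, edgeR adjusted p = 0.000146) for Adamts5, and Adamts1 fell by 0.62 on the log2 scale (SE 0.099, edgeR adjusted p = 0.0012). Adamts1 RNA was 4.91 and 5.55 times that of Adamts5 in untreated MKOC and TJ cells, per TPM, and 1.70 and 1.95 times with rapamycin. Of the other aggrecanase-type enzymes, Adamts4 was at 1.23 and 1.85 TPM untreated and 1.83 and 4.31 TPM with rapamycin, a log2 fold change of 0.90 (SE 0.22, edgeR adjusted p = 0.0111). Its treated MKOC value lay just under the untreated TJ value, so the groups overlapped and the rise was seen within each line. In fits that left out 1 library and had no line term, the value was 0.25 without TJ rapamycin and 1.46 without MKOC rapamycin. The difference between the lines enters those values. Within the lines, the TPM ratio of treated to untreated cells was 1.49 in MKOC and 2.33 in TJ.

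Adamts10 was at 1.79 and 0.715 TPM untreated and at 3.42 and 2.45 TPM with rapamycin in MKOC and TJ cells, from 33 to 87 counts per library. Its log2 fold change was 1.09 (SE 0.30, edgeR adjusted p = 0.018). The call was lost in DESeq2 (adjusted p = 0.113) and in edgeR without the replicate block (adjusted p = 0.149). The counts were spread over several transcripts, and the transcript with the most counts, a coding one with 21.8% of those in the kidney libraries, was lower with rapamycin in both lines, with log2 changes of -0.14 and -0.16 in TPM with 1 added. That coding transcript was at 0.397 and 0.135 TPM in untreated MKOC and TJ cells and at 0.270 and 0.0163 TPM with rapamycin. A retained-intron transcript of 721 bases was at 1.14 and 0.285 TPM untreated and at 2.17 and 1.20 TPM with rapamycin. The rise of the gene total is therefore not shown for the coding RNA, and the division of reads between the transcripts is uncertain.

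The inhibitors made up most of the RNA of these genes in the kidney lines, and Timp3 and Timp2 rose there. Timp3 was at 325 and 244 TPM in untreated MKOC and TJ cells and at 457 and 333 TPM with rapamycin. Timp2 was at 106 and 90.7 TPM untreated and at 190 and 133 TPM with rapamycin. Timp1 was at 48.2 and 33.5 TPM untreated and at 54.5 and 30.7 TPM with rapamycin. Each treated library lay above both untreated ones for Timp2 and Timp3, and the treated and untreated values of Timp1 overlapped. The log2 fold changes were 0.76 (SE 0.11, edgeR adjusted p = 0.000615) for Timp2, 0.45 (SE 0.11, edgeR adjusted p = 0.00828) for Timp3 and 0.03 for Timp1, with a 95% interval of -0.28 to 0.33. In the fits that left out 1 library, Timp2 ran from 0.49 (without MKOC rapamycin) to 1.02 (without TJ rapamycin). Timp3 ran from 0.20 (without MKOC rapamycin) to 0.69 (without MKOC untreated). Those fits had no line term, so the difference between the lines enters these values. Within MKOC and TJ, the TPM ratios of treated to untreated cells were 1.79 and 1.46 for Timp2, and 1.41 and 1.36 for Timp3. The 2 Timp2 transcripts were both higher with rapamycin in each line, the long one at 52.2 and 46.1 TPM untreated and 101 and 71.7 TPM treated.

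Among the MMPs, Mmp11, which furin activates before secretion, was at 10.6 and 12.2 TPM in untreated MKOC and TJ cells and at 19.8 and 20.8 TPM with rapamycin. Mmp24, a membrane-type MMP, was at 2.97 and 2.29 TPM untreated and at 4.68 and 4.62 TPM treated. Mmp28 (epilysin, chr11:83440768-83463071) was at 4.49 and 6.66 TPM untreated and at 1.73 and 2.09 TPM treated. Treated and untreated libraries were apart for all 3. In edgeR the log2 fold change was 0.94 (SE 0.13, adjusted p = 0.000539) for Mmp11 and 0.82 (SE 0.17, adjusted p = 0.00526) for Mmp24, and Mmp28 fell by 1.503 on the log2 scale (SE 0.20, adjusted p = 0.000474). In the fit of all 4 libraries with the line as covariate, Mmp28 had the largest difference in either direction among the 23 members tested. Exons of all 3 genes overlap a gene on the opposite strand (Chchd10 for Mmp11, BC029722 for Mmp24 and 1700020L24Rik for Mmp28). The library kit marks strand, and whether the counting used it is not given in the sources used here.

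The other 14 members tested did not pass the threshold. The stromelysins Mmp3 and Mmp10 had fitted log2 fold changes of -0.05 (95% interval -0.67 to 0.56) and 0.20 (-0.39 to 0.78). Collagenase Mmp13 was at 1.38 and 1.71 TPM untreated and 1.59 and 1.44 TPM treated, with an interval of -0.68 to 0.62. Mmp23 had a fitted value of 1.08 from 5 to 12 counts per library, with an interval of -0.07 to 2.23. Such intervals include changes as large as those called in other members. Mmp14, the most abundant MMP of the fibroblasts, was at 3 to 5 counts per library in these cells.

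**Figure D4:**
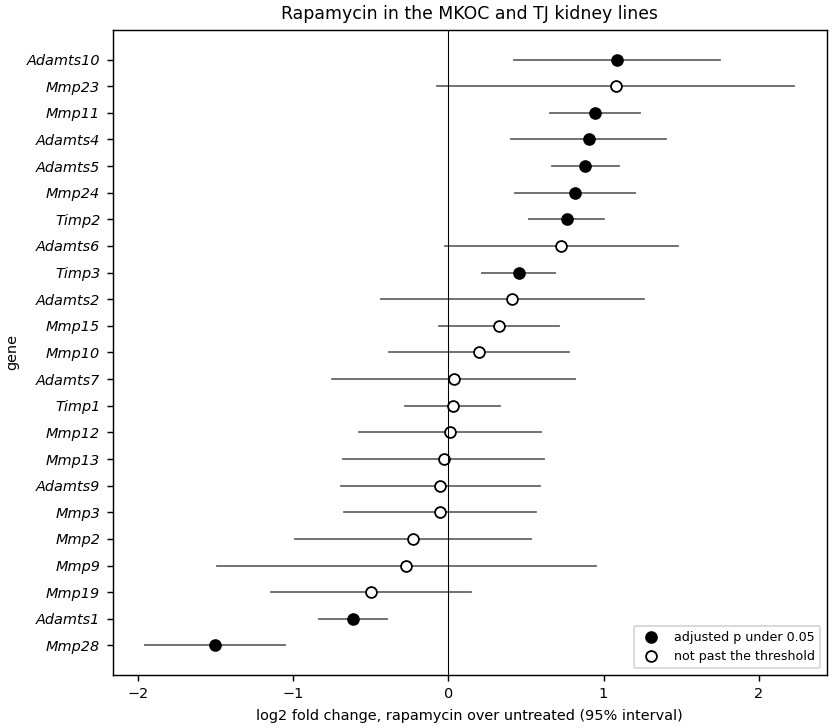
Log2 fold change with rapamycin over untreated cells (horizontal, with 95% intervals as bars) for the 23 genes tested by edgeR over the MKOC and TJ lines, 1 row per gene; filled points passed the adjusted p of 0.05. The 7 filled points on the right are led by Adamts10 at 1.09, and Mmp28 at -1.503 and Adamts1 at -0.62 are the filled points on the left.

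**Figure D5:**
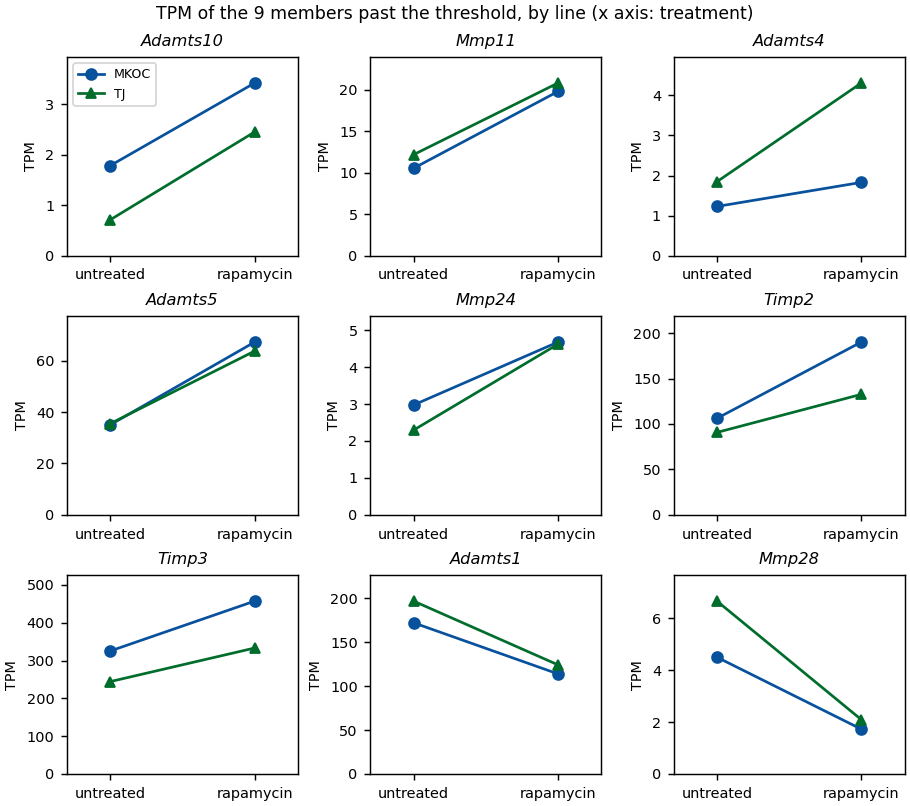
TPM (axes from 0) of the 9 genes past the threshold in untreated and treated cells, with a line joining the 2 libraries of MKOC (circles) and of TJ (triangles). In all 9 genes the lines slope the same way, as for Adamts4 in MKOC (1.23 to 1.83 TPM) and TJ (1.85 to 4.31 TPM).

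The kidney lines were also compared with each other, with treatment as a covariate in the same model. Mmp15, a membrane-type MMP, and Adamts4 were higher in the tumor-derived TJ line, and the inhibitors Timp1 and Timp3 were lower. These were 2 members on each side of 23, against 5.47% of all genes higher and 3.32% lower in TJ cells, 8.79% in all. Mmp15 was at 2.13 and 2.48 TPM in MKOC cells and 3.75 and 5.07 TPM in TJ cells, a log2 difference of 0.90 (SE 0.17, edgeR adjusted p = 0.0115). Timp1, given above by library, was higher in both MKOC libraries than in either TJ library, and the log2 difference TJ over MKOC was -0.70 (SE 0.14, edgeR adjusted p = 0.0128). For Timp3 it was -0.45 (SE 0.11, edgeR adjusted p = 0.0267) and for Adamts4 0.91 (SE 0.22, edgeR adjusted p = 0.0342), while Timp2, at -0.37, had an edgeR adjusted p of 0.064. Adamts1 and Adamts5, at 0.15 (95% interval -0.07 to 0.37) and -0.05 (-0.26 to 0.17), were not called. Without the treatment covariate, and without any 1 library, 0 of the 4 calls passed in edgeR, with 0 to 3 members at an unadjusted p under 0.05, and those fits called 0 to 107 genes in all. The difference ran from 0.26 (without TJ rapamycin) to 1.48 (without TJ untreated) for Adamts4. For Timp3 it ran from -0.21 (without MKOC rapamycin) to -0.70 (without TJ rapamycin). With no treatment term in the fits that left out 1 library, the change with rapamycin enters these values. The test compares these lines and cannot tell a tumor origin apart from any other difference between them.

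In the comparison of kidney lines with MEFs, Mmp2, Adamts7, Mmp19, Adamts10, Mmp11 and 3 members that were close to 0 counts in the kidney lines were called lower there. With the 4 untreated libraries in edgeR (n = 2 per cell type), these were 8 of 28 members tested, against 5.20% of all 13473 genes, and 0 were higher, against 4.74%. Called in either direction were 9.93% of all genes. With an unadjusted p under 0.05 there were 14 lower and 2 higher members, against 17.0% and 15.5% of all genes, and DESeq2 called 17 lower and 3 higher of 43, while it called 20.4% of all genes. Mmp14 was at 341 and 206 TPM in MEFs and 0.0823 and 0.0917 TPM in untreated MKOC and TJ cells, from 4 counts in each. Mmp2 was at 30.8 and 74.2 TPM against 0.678 and 0.930 TPM, a log2 difference of -6.05 (SE 0.44, edgeR adjusted p = 0.0152). The protease that activates pro-Mmp2 and its substrate were thus both under 1 TPM in the kidney lines, whereas Timp2 was at 90.7 TPM or more. Adamts7 (-4.39), Mmp19 (-3.66), Adamts10 (-3.58) and Mmp11 (-1.69) were the other called members with over 5 counts in each kidney library. Mmp16 and Adamts14 were also called, but had 0 to 2 counts in the untreated kidney libraries and no fold is given for them. Mmp14, Mmp16 and Adamts14 met the minimum for testing only through the MEF libraries, where they are high, so they had to differ if tested. Their values are a description, and neither the count of 8 nor the other counts of lower members is read as support.

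The values of Adamts1, Adamts5, Mmp10, Mmp15 and Timp3 were higher in all 4 kidney libraries than in both MEF libraries, without passing the test in edgeR. DESeq2 called Adamts1 (adjusted p = 0.0248), Mmp10 (adjusted p = 0.00628) and Mmp15 (adjusted p = 0.00273) of these. More members, among them Mmp14, Mmp2 and Timp1, were instead higher in both MEF libraries than in all 4 kidney libraries. The share of all genes separated in this way was not counted, so these lists are a description. Adamts1 was at 5.08 and 61.9 TPM in MEFs against 172 and 197 TPM in untreated kidney cells, with a 95% interval of -0.40 to 5.43 for the log2 difference. The spread within MEFs, which is that between the Tsc2 genotypes, sets these intervals. In fits without the Tsc2+/+ MEF library 23 of 34 members were lower and 5 higher, where 47.7% of all genes were called. Without the Tsc2-/- library 13 of 28 were lower and 7 higher, where 56.1% were called. Without untreated MKOC or without untreated TJ, 0 members and 0 genes in all were called by edgeR, with 8 and 7 members at an unadjusted p under 0.05.

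The other genes of the pathway were described from 6 lists. The counts stand beside 17.5% of all genes higher and 17.4% lower with rapamycin, and 24.5% higher and 4.92% lower in Tsc2-/- MEFs, and with so few genes per list nothing particular to a list is read from them. Of the activation and plasminogen genes, 4 of 8 tested rose with rapamycin and 1 fell, and 7 of 9 compared were at least 2-fold higher in Tsc2-/- MEFs. Plau (urokinase, which turns plasminogen into the MMP activator plasmin) was at 0.281 and 8.10 TPM in Tsc2+/+ and Tsc2-/- MEFs, 77.5 and 146 TPM in untreated MKOC and TJ cells and 104 and 230 TPM with rapamycin. Its receptor Plaur was at 11.4 and 52.3 TPM in the MEFs, 36.0 and 32.9 TPM in untreated kidney cells and 58.8 and 57.1 TPM with rapamycin. In edgeR the log2 fold changes with rapamycin were 0.54 (SE 0.10, adjusted p = 0.00295) for Plau and 0.75 (SE 0.11, adjusted p = 0.000819) for Plaur, so the activator and its receptor both rose. Furin, which removes propeptides, had a log2 fold change of 0.36 (SE 0.12, edgeR adjusted p = 0.0423).

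Of the MMP regulators and receptors, 2 of 6 tested rose and 1 fell, where 34.9% of all genes were called, and 5 of 7 were higher and 1 lower in Tsc2-/- MEFs. Thbs1 (thrombospondin-1, which binds Mmp2 and Mmp9) was at 9.63 and 165 TPM in the MEFs, 204 and 198 TPM in untreated MKOC and TJ cells and 740 and 688 TPM with rapamycin. Its log2 fold change with rapamycin was 1.80 (SE 0.11, edgeR adjusted p = 7.89e-06). Bsg (basigin, an inducer of MMPs) was at 515 and 600 TPM untreated and 324 and 400 TPM treated, and fell by 0.63 on the log2 scale (SE 0.097, edgeR adjusted p = 0.000952). Of 7 ADAM sheddases tested 1 rose and 1 fell, and Adam9 fell by 0.52 on the log2 scale (SE 0.097, edgeR adjusted p = 0.00256). Of 4 ADAMTS-like genes 1 rose and 0 fell, and of 5 ADAMTS substrates 1 rose and 0 fell, which was Col3a1 at 0.139 to 1.07 TPM. In the MEFs, 3 of 8 sheddases and 3 of 7 substrates were higher and 0 lower, and 2 of 4 ADAMTS-like genes were higher and 1 lower.

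Of the 11 AP-1 and ETS factors tested, 4 rose and 2 fell, and 4 of 9 were higher in Tsc2-/- MEFs with 0 lower, beside the same shares of all genes. Junb was at 13.3 and 16.4 TPM in untreated MKOC and TJ cells and 26.5 and 55.2 TPM with rapamycin, and Fosl2 at 18.5 and 19.7 TPM against 45.6 and 30.8 TPM. Fosl1 was at 58.1 and 54.7 TPM untreated and 29.1 and 22.9 TPM treated. The AP-1 subunits therefore went both ways, with log2 fold changes of 1.37 (SE 0.17, edgeR adjusted p = 0.000285) for Junb, 0.97 (SE 0.15, edgeR adjusted p = 0.000848) for Fosl2, and -1.13 (SE 0.12, edgeR adjusted p = 0.00011) for Fosl1. The ETS factor Ets2 fell by 0.30 on the log2 scale (SE 0.10, edgeR adjusted p = 0.0423). The 4 chromosome 9 genes with AP-1 letters that were tested, Mmp3, Mmp10, Mmp12 and Mmp13, were not among the 9 members called.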

How the data were processed

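RNA from 6 mouse libraries had been sequenced as 100 bp paired-end reads. The authors trimmed the reads with Trimmomatic and ran Kallisto, and deposited estimated counts and TPM values for 88198 transcripts. The methods name a human reference, but the identifiers are those of mouse. The deposited fold change column, a ratio from the authors' own comparison, was used only for its gene symbols. Symbols were missing for 1006 transcripts, 0.372% to 0.468% of the counts, which were left out, and 8 had a pair of symbols, of which the first was used. TPM and estimated counts were summed per symbol, and the 46 members had 129 transcripts. Counts were rounded to whole numbers.

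Folds between the MEF libraries used TPM with 1 added, a mean of at least 1 TPM and a limit of 2-fold. Kidney and tissue comparisons used edgeR 4.0.16 in R 4.3.3 (filterByExpr, TMM, quasi-likelihood test, Benjamini-Hochberg over all genes tested at 0.05). The line was the replicate block, since the labels name it, and the deviations of the MKOC libraries from the treatment means had a correlation of 0.56 over 12952 genes. Only 2 lines were available. For rapamycin and the lines, p-values rest on how far the change with rapamycin differed between MKOC and TJ. For tissue they rest on the spread within each cell type. In each case the error estimate also draws on other genes. A floor of 3 counts and 95% Wilson or exact intervals give the precision from counting. In simulated data, 200 of 200 genes changed 4-fold were recovered in each comparison. There were 10 false calls of 12952 genes for rapamycin, 12 for the lines and 8 of 13473 for tissue. Every simulated gene had the same set spread, and only well expressed genes were changed. No spread from genotype or line was simulated for tissue, and no line-specific response to rapamycin for the others. These counts therefore give neither the power nor the false calls of the measured comparisons. Alternatives used DESeq2 1.42.0, limma 3.58.1, other scalings, pseudocounts and filters. Positions came from GENCODE M21 and promoters from RefSeq. Tables were handled in Python 3.11.15 with pandas 2.3.3, numpy 2.4.6 and scipy 1.17.1.

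Named genes are members with at least 10 TPM in a library, called with rapamycin or past 2-fold in MEFs, and up to 12 regulators by mean TPM, those called with rapamycin or past 4-fold in MEFs. Other genes in the text, such as Adamts14, Mmp15 and Mmp16, were added after their values were seen. Members, lists and tests were chosen with earlier results of these data known. Protein sequences were not used here, and some items that the rule names are not reported here.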

Additional observations from a re-analysis of the deposited data

Results flagged for a closer look

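In 3 genes the change with rapamycin went opposite ways in the MKOC and TJ lines. Each had a counting interval that excludes no change, taken on the ratio of count shares and not on TPM. With 1 library per line and treatment the difference between the lines was not tested. On the log2 scale of TPM with 1 added, Mmp10 was at 0.695 in MKOC cells (7.08 to 12.1 TPM) and -0.357 in TJ cells (7.17 to 5.38 TPM). Mmp3, its neighbour on chromosome 9, was at 0.458 in MKOC cells (4.92 to 7.14 TPM) and -0.542 in TJ cells (6.17 to 3.92 TPM). Adamts9 was at -0.306 in MKOC cells (0.906 to 0.541 TPM) and 0.159 in TJ cells (1.14 to 1.39 TPM). In TJ cells its counting intervals in TPM overlapped, at 0.955 to 1.35 untreated and 1.195 to 1.61 with rapamycin. Counts were 62 to 290 per library.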

How the results depend on the processing

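For the MEFs, members at least 2-fold higher numbered 10 to 17 over 6 alternatives. Those lower, 1 in the text, were 2 with 0.1 TPM added, 3 after scaling to a median ratio of 1, 2 without transcripts under 300 bases and 4 with CPM. At least 8-fold higher were 0 to 9 members over these alternatives, chosen after seeing the data. With rapamycin, DESeq2 gave 6 higher and 2 lower of 42 members and lost Adamts10, where 15.4% of all genes were called, and the other normalizations, limma and no filter kept all 9 calls. Without the replicate block 2 were higher and 2 lower, with Adamts10, Adamts4, Mmp24, Timp2 and Timp3 lost. Leaving out each library in turn, with no line term, gave 0 to 3 higher and 0 to 0 lower. Between the lines, DESeq2 gave 1 higher and 2 lower of 42 (Adamts4 lost, 3.09% of all genes called), no filter gave 3 higher and 4 lower of 42 (8.86% of all genes called), and no replicate block and each library left out gave 0 and 0. For tissue, DESeq2 gave 3 higher and 17 lower of 43 (20.4% of all genes called), no filter 0 and 6 of 43 (5.6%), and leaving out each library 0 to 7 higher and 0 to 23 lower. Where a left-out library leaves 1 sample in a group, that sample is assumed to vary like the others. The cause of these shifts was not tested. Fewer libraries enter the fits that leave 1 out, and those for rapamycin and the lines had no term for the other factor.

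Log2 values of single genes that changed sign with rapamycin were Adamts10 in its leading transcript (-0.14 in MKOC, -0.16 in TJ, chosen after seeing the data), Mmp10 (-0.43 without MKOC rapamycin to 0.76 without TJ rapamycin, -0.36 in TJ alone), Mmp3 (-0.52 without MKOC rapamycin to 0.37 without TJ rapamycin, 0.15 without TJ untreated, 0.46 in MKOC alone) and Timp1 (-0.43 without MKOC rapamycin to 0.41 without TJ rapamycin, -0.20 without TJ untreated, -0.0516 in its leading transcript in MKOC, -0.12 in TJ alone). Between the lines, Timp2 ranged from -0.80 without MKOC untreated to 0.12 without MKOC rapamycin. Of these, Adamts10 alone had passed the threshold. Rapamycin values from fits without 1 library also hold the difference between the lines. In the line comparison such values also hold the change with rapamycin. A count of 3 or less limits 9 members in every library.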
